A study of Mus musculus with 8 samples.

Results

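The 10 genes described here are targets of the transcription factor NRF2 and genes of iron handling, measured by RNA sequencing in bone marrow-derived dendritic cells (BMDCs). They were chosen by symbol, with earlier results of these data known, as *Hmox1*, *Nqo1*, *Gclm*, *Slc7a11*, *Txnrd1*, *Srxn1*, *Ftl1*, *Fth1*, *Tfrc* and *Slc40a1*, which makes 10 of the 23356 genes in the deposited table. BMDCs are grown from mouse marrow, here for 6 days with GM-CSF and IL-4 at 10 ng/ml each. The cells came from wild-type (WT) C57BL/6N mice or from GEF-H1-/- mice on the same background (C57BL/6 in the labels), which lack the guanine nucleotide exchange factor GEF-H1 encoded by *Arhgef2* and carry the mutated allele in all cells, and were left untreated or received 100 nM ansamitocin-P3, a tubulin-binding drug that destabilizes microtubules, for 5 h. This makes 4 groups, called control and treated WT and control and treated GEF-H1-/- BMDCs, with 2 libraries each. The study asked which transcripts respond to loss of microtubules and need GEF-H1 to do so. The labels do not say whether the 2 libraries of a group came from separate mice and give no age, and the label of the untreated groups names no vehicle.

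NRF2 is held in the cytoplasm by KEAP1 and degraded. When reactive molecules modify KEAP1, NRF2 escapes, enters the nucleus, pairs with small MAF proteins and binds antioxidant response elements, where BACH1 otherwise represses. Its targets import cystine, make glutathione, recycle thioredoxin and peroxiredoxin, break down heme and store iron. Ferritin and the transferrin receptor are also controlled after transcription, by iron regulatory proteins that bind hairpins in their mRNAs, so that cells short of iron block ferritin translation and keep the receptor mRNA.

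The table gives, for each gene and group, 1 pooled FPKM (fragments counted per length of transcript and size of library) and the bounds of the 95% confidence interval of Cuffdiff, the program that made it. There is no value per library, so the differences carry no SD, no n and no p-value, and none was tested against the spread between libraries. Differences are given as log2 of FPKM + 1, which understates the change of low genes, and a gene is called when the difference is past 1 in size, or 2-fold. As a second rule, the text says where the intervals of the compared groups did not overlap. All 10 genes reached 1 FPKM in some group and so passed the filter, as did 11397 genes in all. Their lowest value was 4.73 FPKM, and the half-width of their intervals ran from 18.5% to 28.2% of the value.

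*Arhgef2* checked the genotype labels. It stood at 42.3 FPKM in control WT and 45.9 in treated WT BMDCs, against 4.59 and 4.16 in control and treated GEF-H1-/- BMDCs. Dendritic cell markers were present (7 of 8 at 1 FPKM or more in every group), and so were neutrophil markers. The summed level of the latter ran from 21129 FPKM in control GEF-H1-/- to 36149.6 in treated WT cells. *S100a8*, a large part of this sum, lay above its own Cuffdiff interval in every group. Erythroid markers summed to between 0.600 and 2.69 FPKM, with *Slc4a1* at 0 in both WT groups and at no more than 0.0102 FPKM in the GEF-H1-/- groups. The FPKM of all genes summed to 739523 in treated WT cells and to between 599331 and 617423 in the other groups. Setting these sums equal moved the median log2 difference of all genes in WT cells from 0.00 to -0.24, and the share of called genes that were higher after the drug from 74.1% to 38.3%. Values below are on the deposited scale, and the text says where the equal-sum scale ends a call.

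**Figure D1:**
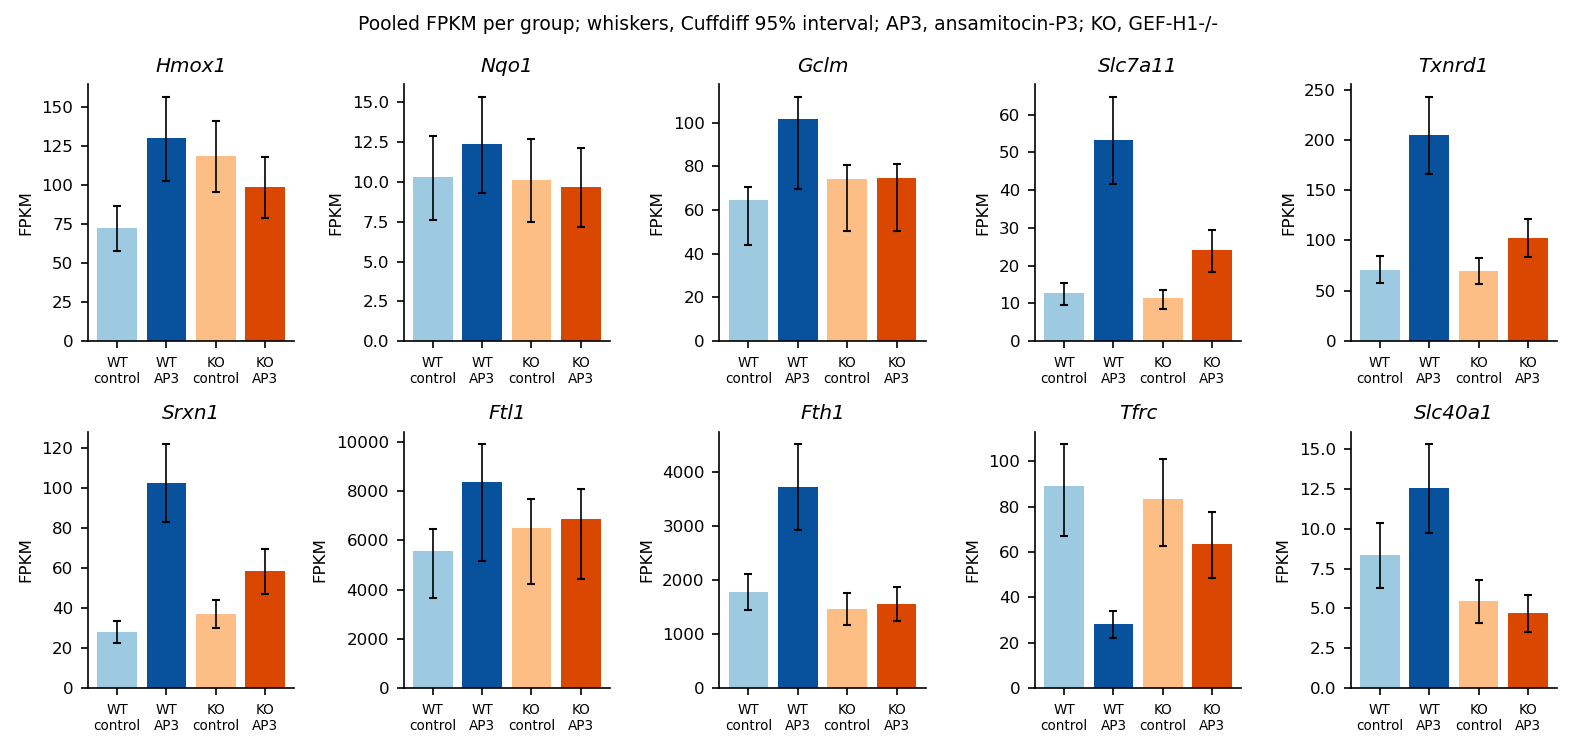
Pooled FPKM (y axes, starting at 0) of the 10 genes in WT and GEF-H1-/- (KO) BMDCs left as controls or treated with ansamitocin-P3 (AP3), 1 panel per gene. Bars are the group values and whiskers the 95% interval of Cuffdiff. *Slc7a11*, *Txnrd1*, *Srxn1* and *Fth1* have their highest bar in treated WT cells, at 53.4, 205, 102 and 3727 FPKM, and *Tfrc* its lowest, at 28.3 FPKM.

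*Slc7a11*, a gene of cystine import, showed the largest difference of the 10 genes. *Slc7a11* (ENSMUSG00000027737.10, chr3:50364936-50443613 of GRCm38, minus strand) encodes the transport chain of the cystine-glutamate exchanger. Control WT cells had 12.8 FPKM (interval 9.60 to 15.5) and treated WT cells 53.4 (41.7 to 64.8), while GEF-H1-/- cells went from 11.3 (8.45 to 13.6) to 24.1 (18.4 to 29.4). The control groups overlapped, and both treated groups lay above their controls, treated WT cells highest. The log2 difference was 1.98 in WT cells, or 4.16-fold, and 1.03 in GEF-H1-/- cells, or 2.13-fold. The latter is the only call among the 10 genes in GEF-H1-/- cells, and it was lost with a pseudocount of 5 FPKM and on the equal-sum scale, although the intervals stayed apart on the deposited scale. In these bulk samples, fewer cells of a type and less RNA per cell cannot be told apart.

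Because *Slc7a11* differed most, the 250 bases before its start are shown (RefSeq, GRCm38.p6, chr3:50443614-50443863, minus strand, 5′ to 3′). The capitals mark the 2 matches to TGATGNAA, the amino acid response element bound by ATF4 and its partners, a motif searched after the values had been seen.
Slc7a11 promoter: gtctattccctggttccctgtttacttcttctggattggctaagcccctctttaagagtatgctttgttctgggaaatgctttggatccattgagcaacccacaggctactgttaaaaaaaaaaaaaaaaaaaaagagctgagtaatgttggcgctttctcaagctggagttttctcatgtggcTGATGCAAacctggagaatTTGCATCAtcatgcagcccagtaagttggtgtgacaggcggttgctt
The first match lies on the gene's strand and begins at base -66 from the start, and the second lies on the opposite strand and begins at -47, 19 bases further on. Of 32851 promoter windows of 300 bases in the table (250 before and 50 after the start), 3.97% held this motif on either strand. Among the 10 genes only *Slc7a11* did, of the 8 with a window (all but *Hmox1* and *Slc40a1*), which have 12 windows in all.

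*Txnrd1* and *Srxn1*, which encode 2 of the enzymes that recycle thioredoxin and peroxiredoxin, were also past 2-fold in WT cells. *Txnrd1* (ENSMUSG00000020250.10, chr10:82833951-82897724, plus strand), cytosolic thioredoxin reductase, was at 70.9 FPKM (57.6 to 84.2) in control WT and 205 (166 to 243) in treated WT cells. In GEF-H1-/- cells it was at 69.9 (56.9 to 82.9) and 102 (83.3 to 121). The control groups were nearly equal, and each treated group lay above its control with no overlap. The log2 difference was 1.52 in WT and 0.54 in GEF-H1-/- cells, so that only the first passed 2-fold. *Txnrd1* overlaps *Eid3*, a gene on the same strand at no more than 0.724 FPKM, and 2 genes on the opposite strand.

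*Srxn1* (ENSMUSG00000032802.8, chr2:152105524-152111376, plus strand), sulfiredoxin, returns over-oxidized peroxiredoxins to use. It was at 28.1 FPKM (22.7 to 33.5) in control WT and 102 (82.8 to 122) in treated WT cells, and at 37.2 (30.1 to 44.3) and 58.4 (47.1 to 69.6) in control and treated GEF-H1-/- cells. Again each treated group lay above its control with no overlap, with treated WT cells above all. The log2 difference was 1.83 in WT cells, or 3.64-fold, and 0.64 in GEF-H1-/- cells, or 1.57-fold. Its WT drug effect minus its GEF-H1-/- drug effect, 1.19, was the highest of the 10 genes, although *Tfrc* at -1.24 was larger in size. Without the drug *Srxn1* was higher in GEF-H1-/- than in WT cells by 0.39, with overlapping intervals.

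*Srxn1* was the only one of the 8 genes with a window to have a promoter match to TGANTCA, the site of AP-1. The 250 bases before its start are shown (RefSeq, GRCm38.p6, chr2:152105274-152105523, plus strand, 5′ to 3′), with the 2 matches in capitals.
Srxn1 promoter: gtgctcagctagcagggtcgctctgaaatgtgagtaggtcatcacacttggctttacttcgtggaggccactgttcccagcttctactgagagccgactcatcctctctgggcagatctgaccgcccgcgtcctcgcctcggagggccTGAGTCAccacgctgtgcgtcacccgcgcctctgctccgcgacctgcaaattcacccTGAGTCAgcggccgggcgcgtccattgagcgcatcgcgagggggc
The matches begin at -102 and -45, 57 bases apart, and read the same motif on both strands. Of all windows, 7.81% held TGANTCA. The core of the antioxidant response element, TGACNNNGC, was searched on both strands as well and was found in 12.4% of all windows and in 3 of the 12 windows of the 10 genes. These were *Gclm* (first base at -134), *Srxn1* (at 29 after the start) and 1 of the 3 windows of *Txnrd1* (at -92), each on the strand opposite to the gene. The motifs can overlap in general but, as searched, did not in these windows. The search required TGAC, so the letters TGAGTCAGC that begin at -45 in the *Srxn1* promoter were not counted by it. A match is a description of the letters, and the windows hold no distal elements.

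The remaining antioxidant genes stayed under 2-fold in every pairwise comparison. *Hmox1* (ENSMUSG00000005413.8, chr8:75093618-75100593, plus strand), heme oxygenase 1, breaks heme down to biliverdin, carbon monoxide and iron. It was at 72.5 FPKM (58.0 to 86.7) in control WT and 129.9 (103 to 157) in treated WT cells, but GEF-H1-/- cells held 119 (95.3 to 141) without and 98.6 (78.8 to 118) with the drug. Control WT cells stood below the other 3 groups: their interval was apart from those of treated WT and control GEF-H1-/- cells. On the log2 scale the difference was 0.83 in WT and -0.27 in GEF-H1-/- cells, and 1.10 between them. *Hmox1* was the only one of the 10 genes whose intervals were apart between the control groups, at a log2 difference of 0.70, higher in GEF-H1-/- cells. The summed level of the 6 macrophage markers was 226 and 173 FPKM in control and treated WT cells and 269.6 and 243 in GEF-H1-/- cells, and its part in the *Hmox1* values was not tested.

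*Gclm* (ENSMUSG00000028124.15, chr3:122245557-122267215, plus strand), the modifier subunit of the enzyme that limits glutathione synthesis, was at 64.6 and 102 FPKM in control and treated WT cells and at 74.1 and 74.6 in GEF-H1-/- cells. Treated WT cells had the highest value, but its interval of 69.6 to 112 overlapped those of the other groups. The log2 difference was 0.64 in WT and 0.01 in GEF-H1-/- cells. *Nqo1* (ENSMUSG00000003849.8, chr8:107388225-107403205, minus strand), a quinone reductase often used as a readout of NRF2, was at 10.3 and 12.4 FPKM in WT cells without and with the drug and at 10.1 and 9.69 in GEF-H1-/- cells. All its intervals overlapped, and its log2 difference of 0.24 in WT cells became -0.01 on the equal-sum scale. *Gclm* overlaps a pseudogene on its strand and a transcript on the other strand.

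The ferritin genes encode the subunits of the shell that stores iron. *Fth1* (ENSMUSG00000024661.7, chr19:9980600-9985111, plus strand), the heavy chain with the iron-oxidizing site, was at 1780.5 FPKM (1451 to 2110.4) in control WT and 3727 (2930.5 to 4524) in treated WT cells. In GEF-H1-/- cells it was at 1463 (1165 to 1761) and 1558 (1244 to 1873). Treated WT cells stood apart from the other 3 groups, which overlapped each other. Its log2 difference was 1.07 in WT cells, or 2.09-fold, and 0.09 in GEF-H1-/- cells. The WT call was lost on the equal-sum scale, at 0.79.

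*Ftl1* (ENSMUSG00000050708.16, chr7:45457944-45459886, minus strand), the light chain, was at 5554 FPKM (3681 to 6459) and 8367 (5181 to 9907) in control and treated WT cells and at 6484 (4244 to 7677) and 6875 (4430.1 to 8092) in GEF-H1-/- cells. Its value was highest in treated WT cells, but all intervals overlapped, and the log2 difference was 0.59 in WT and 0.08 in GEF-H1-/- cells. The ratio of the heavy to the light chain in FPKM went from 0.321 to 0.445 with the drug in WT cells, and from 0.226 to 0.227 in GEF-H1-/- cells. The GENCODE M21 annotation names copies of both genes (2 of the heavy and 3 of the light chain, counted by symbol alone). None of these is listed in the table, and copies under other symbols were not counted. Reads shared with copies make the ferritin values uncertain.

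*Tfrc*, a gene of iron uptake, ran the other way. *Tfrc* (ENSMUSG00000022797.16, chr16:32608896-32632794, plus strand), the transferrin receptor, was at 89.2 FPKM (67.0 to 108) in control WT and 28.3 (22.2 to 34.2) in treated WT cells. In GEF-H1-/- cells it was at 83.5 (62.8 to 101) and 63.7 (48.5 to 77.7). Treated WT cells lay below the other 3 groups, which overlapped each other. This was a log2 difference of -1.62 in WT cells, to 0.317 of the control level, and -0.38 in GEF-H1-/- cells. *Tfrc* is high in dividing cells, and the summed level of 5 proliferation markers was 217 and 162 FPKM in control and treated WT cells and 199 and 188 in GEF-H1-/- cells. Its part in the *Tfrc* values was not tested.

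*Slc40a1* (ENSMUSG00000025993.10, chr1:45908070-45925594, minus strand), ferroportin, the iron exporter, had the lowest FPKM of the 10 genes in every group but treated WT cells, where *Nqo1* was slightly lower. It was at 8.34 FPKM (6.30 to 10.4) and 12.6 (9.74 to 15.3) in control and treated WT cells and at 5.44 (4.06 to 6.78) and 4.73 (3.54 to 5.87) in GEF-H1-/- cells. Within each genotype the intervals overlapped, with log2 differences of 0.54 and -0.17. Between the treated groups they were apart.

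The 4 iron genes with a hairpin are shown because *Fth1* and *Tfrc* moved in opposite directions and carry it at opposite ends. *Ftl1* and *Slc40a1* carry it at the same end as *Fth1* and were not called after the drug. The part of the hairpin in these mRNA levels was not tested. The iron response element was searched, after the values had been seen, in the untranslated regions of GENCODE M21 transcripts (GRCm38) as a C, 5 bases of stem, the loop CAGTGN and 5 bases able to pair with the stem, G with T included, on the gene's strand. Each line is 27 bases, written as DNA, 5′ to 3′ on the gene's strand, and the capitals mark the bulged C and the loop of 6 bases.
Fth1 5′ UTR, chr19:9982733-9982759, plus strand: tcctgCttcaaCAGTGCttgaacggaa
Ftl1 5′ UTR, chr7:45459780-45459806, minus strand: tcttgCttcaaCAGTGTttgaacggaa
Slc40a1 5′ UTR, chr1:45925466-45925492, minus strand: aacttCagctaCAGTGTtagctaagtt
Tfrc 3′ UTR, chr16:32631220-32631246, plus strand: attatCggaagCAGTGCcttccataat
Tfrc 3′ UTR, chr16:32631599-32631625, plus strand: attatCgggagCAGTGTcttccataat
Tfrc 3′ UTR, chr16:32631664-32631690, plus strand: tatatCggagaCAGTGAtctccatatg
Tfrc 3′ UTR, chr16:32631711-32631737, plus strand: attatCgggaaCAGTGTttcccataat
The ferritin chains share the stem around the loop, and the 4 matches of *Tfrc* lie within 518 bases. A match was held in the 5′ UTR by 0.136% of 20544 genes and in the 3′ UTR by 0.607% of 20920 genes. The loop letters CAGTGN alone were present in the 50 bases after the start in 7.08% of all windows and in those of *Srxn1* and *Txnrd1*, which are not iron genes. FPKM measures mRNA, so translation of ferritin or ferroportin was not measured here.

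Across the 10 genes, 4 were called higher after the drug in WT cells (*Slc7a11*, *Srxn1*, *Txnrd1* and *Fth1*) where the background over all genes was 3.66%, and 1 was called lower (*Tfrc*), where it was 1.28%. By the intervals, 5 were higher (these 4 and *Hmox1*) and 1 was lower (*Tfrc*), against 9.19% and 7.58% of all genes. The median log2 difference of the 10 was 0.74. In GEF-H1-/- cells 1 gene was called higher (*Slc7a11*; background 0.807%) and 0 lower (background 0.272%), and the median was 0.05. By the intervals, 3 were higher (*Slc7a11*, *Txnrd1* and *Srxn1*; background 2.75%) and 0 lower (background 0.956%).

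The drug effect had a larger size in WT than in GEF-H1-/- cells for all 10 genes, as it did for 77.5% of all genes. On the equal-sum scale this did not hold for *Nqo1*, at -0.01 in WT and -0.10 in GEF-H1-/- cells. Among the 5 genes called in WT cells, the GEF-H1-/- difference was 0.521 of the WT one for *Slc7a11*, 0.358 for *Txnrd1*, 0.348 for *Srxn1*, 0.237 for *Tfrc* and 0.0854 for *Fth1*. Among these 5 the ratio was highest for *Slc7a11* and lowest for *Fth1*. The 5 were chosen by the size of their WT difference, which can itself lower the ratio. It has no interval and was not computed over all genes. The WT effect minus the GEF-H1-/- effect was past 1 for *Srxn1* and *Hmox1* (background 1.36%) and past -1 for *Tfrc*, at -1.24 (background 0.535%). Over all genes called in this measure, 71.8% were higher in WT cells on the deposited scale and 44.6% on the equal-sum scale, where only *Tfrc* of the 10 was called.

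**Figure D2:**
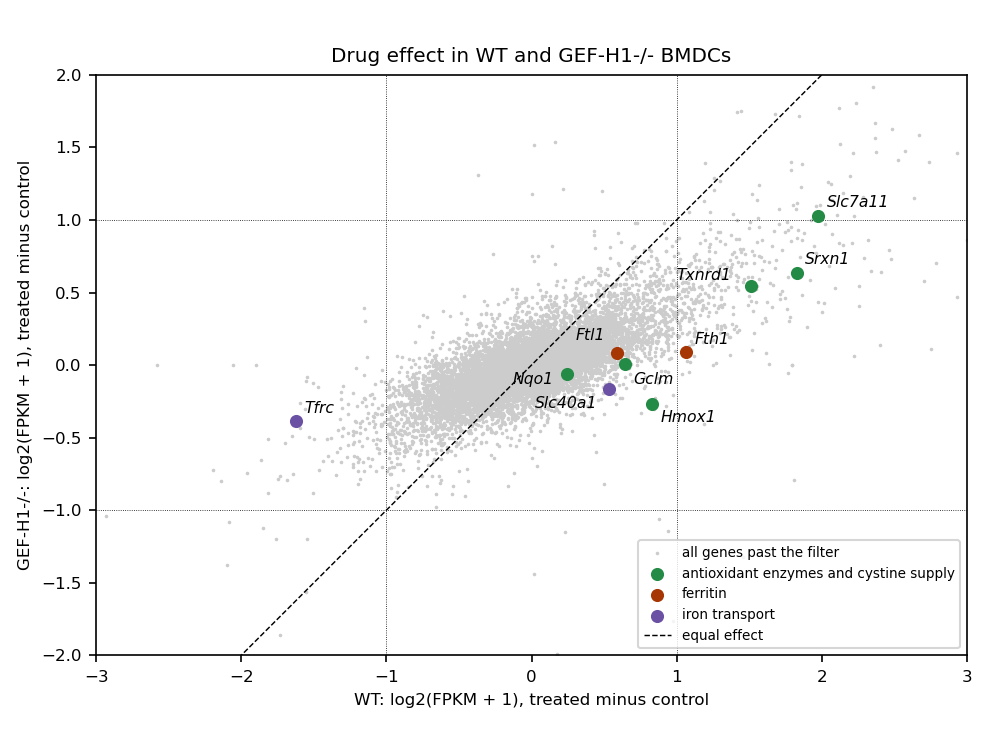
Drug effect as the difference in log2(FPKM + 1), treated minus control, in WT (x axis) and GEF-H1-/- (y axis) BMDCs for all genes past the filter (grey) and the 10 genes (coloured by role). 69 of the 11397 genes lie outside the axes. Dotted lines mark 2-fold and the dashed line equal effects. *Slc7a11* is the only one of the 10 past 2-fold on both axes, at 1.98 and 1.03, and *Fth1* sits at 1.07 and 0.09.

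In control cells the log2 genotype differences of the 10 genes lay between -0.54 and 0.70, with a median of -0.02. None was called in either direction (0 of 10), where 1.26% of all genes were higher and 0.614% lower in GEF-H1-/- cells. That 0 is close to the background. By the intervals, 1 was higher (*Hmox1*; background 2.86%) and 0 were lower (background 1.88%). *Slc40a1* had the lowest value, -0.54, with overlapping intervals.

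With the drug, the genotypes differed in both directions. This comparison uses the same treated libraries as the drug effects, so it repeats part of them. *Fth1* (-1.26), *Slc40a1* (-1.24) and *Slc7a11* (-1.12) were called lower in treated GEF-H1-/- than in treated WT cells (background 2.06%), and *Tfrc* (1.14) higher (background 2%). By the intervals, *Txnrd1* (-0.99) and *Srxn1* (-0.80) joined them, which made 5 lower (background 6.73%) and 1 higher (background 7.02%). On the equal-sum scale *Tfrc* (1.40) and *Slc40a1* (-1.01) kept their call, *Slc7a11* (-0.86) lost it and *Fth1* stood at -0.997, just short of it, while the share of called genes that were higher in GEF-H1-/- cells went from 49.2% to 77.0%. *Slc40a1* passed 2-fold here although no other pairwise difference of it did, and with a pseudocount of 5 FPKM it stood at -0.85.

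**Figure D3:**
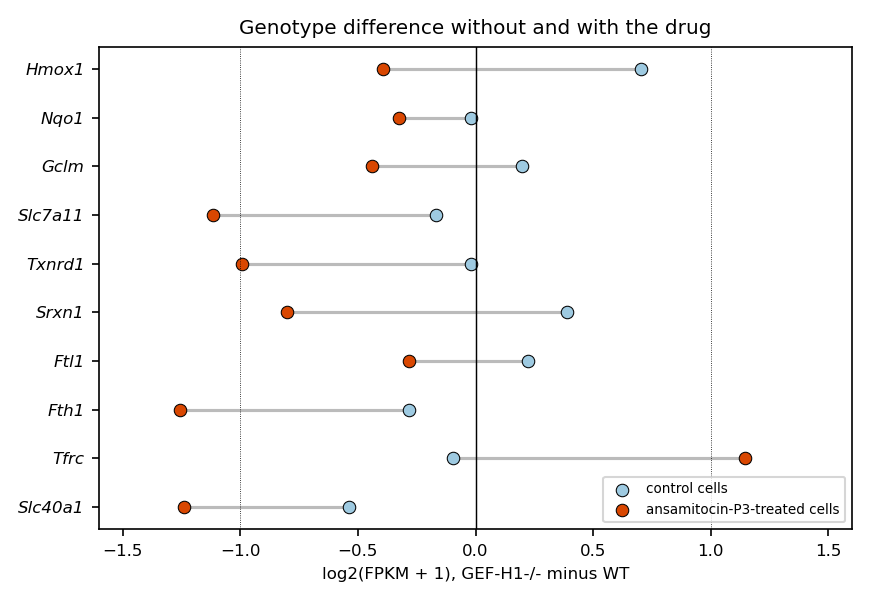
Genotype difference in log2(FPKM + 1), GEF-H1-/- minus WT (x axis), of the 10 genes in control (blue) and ansamitocin-P3-treated (orange) BMDCs. Dotted lines mark 2-fold. In control cells all 10 lie between -0.54 and 0.70, and in treated cells 9 lie below 0 and *Tfrc* lies at 1.14.

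FPKM is a level per length, so the genes can be ranked against each other. In control WT cells *Ftl1* and *Fth1* came first and did not overlap each other or the rest. *Tfrc*, *Hmox1*, *Txnrd1* and *Gclm* followed between 89.2 and 64.6 FPKM with each neighbour's interval overlapping, and *Srxn1* stood alone at 28.1. *Slc7a11*, *Nqo1* and *Slc40a1* came last, between 12.8 and 8.34 FPKM, and their intervals overlapped. In treated WT cells *Slc7a11* (53.4 FPKM) stood above *Tfrc* (28.3 FPKM) with no overlap, the reverse of their order in control cells.

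The wider pathways were read from 7 lists of 85 genes, of which 76 passed the filter. In WT cells 5 of these were called higher after the drug and 0 lower, where the shares of all genes were 3.66% and 1.28%. In GEF-H1-/- cells 0 were called either way, where they were 0.807% and 0.272%, so the 0 is close to the background. The regulators of NRF2 held 3 of the 5. *Sqstm1*, the autophagy receptor p62 that binds KEAP1, was at 139.8 FPKM in control and 478 in treated WT cells, a log2 difference of 1.77 against 0.61 in GEF-H1-/- cells. *Nfe2l2*, which encodes NRF2, was at 46.2 and 113 FPKM in WT cells and at 42.3 and 54.9 in GEF-H1-/- cells, with log2 differences of 1.27 and 0.37. *Maff*, a small MAF partner, was at 8.02 and 17.7 FPKM in WT cells, just past 2-fold, and its log2 difference was 0.33 in GEF-H1-/- cells. The repressors differed less, *Keap1* by -0.17 and *Bach1* by 0.46 in WT cells. All 9 regulators passed the filter, with a median log2 difference of 0.65 in WT and 0.31 in GEF-H1-/- cells, beside 0.00 and -0.01 over all genes. On the equal-sum scale only *Sqstm1* kept its WT call, at 1.49.

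The other antioxidant lists are small, and counts of 0 or 1 in them are near the 3.66% and 1.28% of all genes called higher and lower in WT cells. Of 11 glutathione genes 0 were called in WT cells. *Slc3a2*, the partner chain of *Slc7a11*, was at 0.82 on the log2 scale, *Gstm1*, a glutathione transferase, at 0.64, and *Gclc*, the catalytic partner of *Gclm*, at 0.28. Of 11 thioredoxin and peroxiredoxin genes 1 was called, *Prdx1*, a substrate of sulfiredoxin, which was at 361 FPKM in control and 723 in treated WT cells, just past 2-fold, with a log2 difference of 0.21 in GEF-H1-/- cells. That call sat on the limit and was lost with every rescaling, while *Txn1*, thioredoxin itself, was at 0.30. Of 12 genes of NADPH supply and detoxification 0 were called, and *Idh1* (-0.90) and *Ephx1* (-0.88) were the lowest in WT cells. Of 6 genes of the cystine starvation response 0 were called in WT cells, where *Trib3* was at 0.92 and *Atf4* at 0.70. In control cells *Trib3* was already lower in GEF-H1-/- than in WT cells, at -0.65, with intervals apart. There 5 of the 6 genes were below 0, with a median of -0.32. Between the treated groups *Trib3* was called lower in GEF-H1-/- cells, at -1.13 (background 2.06%), but not on the equal-sum scale (-0.89). On that scale *Idh1* (-1.17) and *Ephx1* (-1.13) were called lower in WT cells after the drug, and the median of the thioredoxin list went from 0.12 to -0.15.

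The heme and other iron lists also had counts near the same background of 3.66% higher and 1.28% lower in WT cells. Of 13 heme genes 1 was called in WT cells, *Alas1*, the first enzyme of heme synthesis, at 63.7 FPKM in control and 153 in treated cells, with log2 differences of 1.25 in WT and 0.59 in GEF-H1-/- cells. It fell just short on the equal-sum scale, at 0.98. *Hmox2*, the constitutive heme oxygenase, was at -0.19 in WT cells. Of 14 other iron genes 0 were called after the drug. The iron regulatory proteins *Aco1* and *Ireb2* were at -0.27 and 0.09 in WT cells, and *Ncoa4*, which delivers ferritin to lysosomes, was at -0.16. On the equal-sum scale *Ireb2* was at -0.18, *Steap3* was called lower in WT cells, and the median of the other iron genes went from 0.07 to -0.20.

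Between the genotypes, 1 of the 14 other iron genes was called higher and 1 lower in control cells (1.26% and 0.614% of all genes), and 1 higher and 2 lower in treated cells (2% and 2.06%). *Slc11a1*, the phagosomal metal transporter, was at 5.93 FPKM in control WT and 16.7 in control GEF-H1-/- cells, a log2 difference of 1.35. Between the treated groups its difference was 0.98. *Cp*, the ferroxidase ceruloplasmin, was at 5.20 and 1.18 FPKM in these control groups, a difference of -1.51, and was called between the treated groups as well, at -1.30. Between treated groups *Steap3*, an endosomal ferrireductase, was higher in GEF-H1-/- cells by 1.57 on the log2 scale. In control cells it was already higher by 0.83, with intervals apart. *Lcn2*, the siderophore-binding lipocalin, had a log2 difference of -1.35 between treated groups and of -0.66 in control cells, where the intervals overlapped. *Lcn2* is also a neutrophil granule gene, and the summed level of 6 neutrophil markers was 36149.6 FPKM in treated WT and 21575 in treated GEF-H1-/- cells. *S100a8* and *S100a9* carried this sum. The *S100a8* value lay above its own interval in both groups, at 23110 FPKM (11072 to 20260.5) and 11199 (5535 to 9227). The markers differed in direction. *Camp* was at 202 and 18.7 FPKM in these groups and *Ltf* at 402 and 129, but *Mpo* at 21.7 and 59.0 and *Elane* at 20.2 and 39.2. These 4 had the same directions in control WT and GEF-H1-/- cells. There *Camp* was at 189 and 15.0 FPKM, *Ltf* at 399 and 145, *Mpo* at 26.4 and 63.1 and *Elane* at 20.7 and 45.9. The *Elane* intervals began at 0 and overlapped. The part of the neutrophil markers in the *Lcn2* values was not tested.

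**Figure D4:**
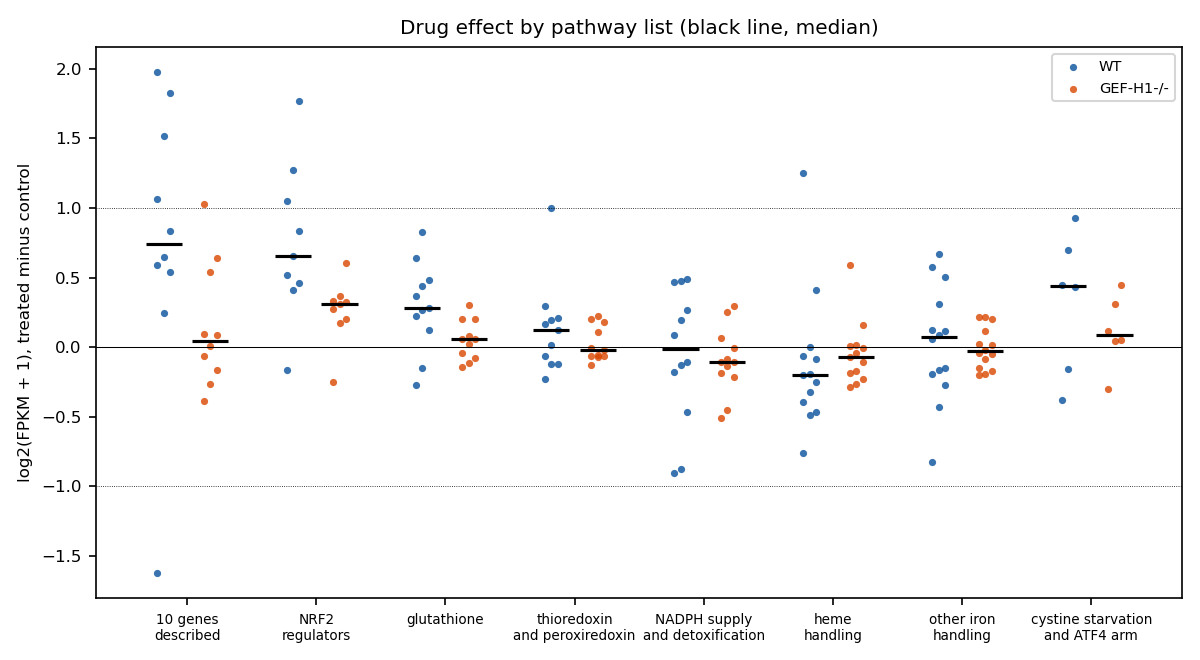
Drug effect as the difference in log2(FPKM + 1), treated minus control (y axis), in WT (blue) and GEF-H1-/- (orange) BMDCs for the 10 genes and the 76 genes of 7 pathway lists past the filter, each point a gene and each black line a median. The WT median is 0.74 for the 10 genes and 0.65 for the regulators of NRF2, and lies between -0.20 and 0.44 in the other lists.

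The genes nearest in pattern were those with the smallest Euclidean distance over the WT drug effect, the GEF-H1-/- drug effect and the control genotype difference, among 7725 genes with at least 5 FPKM in each group. For *Slc7a11* they were *Arl4c*, *Flrt3* and *Klf6* (distances 0.14 to 0.16 on the log2 scale), and for *Txnrd1* they were *Tpm4*, *Havcr2* and *Pde4b* (0.09 to 0.10). For *Srxn1* they were *Il1f9*, *Cebpb* and *Clec7a* (0.27 to 0.31), and for *Fth1* they were *Dstn*, *Ifitm1* and *Dgat2* (0.09 to 0.14). For *Tfrc* they were *Ccr2* and *Chn2* (0.25 and 0.31), so *Srxn1* and *Tfrc* had no neighbour as close as the others did. Likeness here is over 3 values computed from 4 groups.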

How the data were processed

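RNA from 8 libraries, 2 per group, was sequenced as stranded poly(A) libraries. The deposited FPKM were made by the authors with Cuffdiff (1.05 per the labels), with 1 pooled value per gene and group, and the deposited interval bounds are in FPKM. The labels name mm10, and the loci follow GRCm38. The aligner and annotation of this table are not given in the sources used here. The columns of WT cells name no genotype and were assigned by elimination, and *Arhgef2* runs the same way. Library depth is unknown, since FPKM does not keep it, and all intervals are those of Cuffdiff.

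Starts in the table count from 0 and were raised by 1. Of 23356 genes, 107 without an OK status in all groups and those under 1 FPKM in every group were left out, leaving 11397. Differences were computed in Python 3.11.15 (pandas 2.3.3, numpy 2.4.6) with a pseudocount of 1 FPKM and tested on simulated data. The members and lists were chosen with earlier results of these data known. Genes were named by rule: the 10 members, *Arhgef2*, 9 regulators and partners, list genes past 2-fold at 5 FPKM or more, the 2 largest WT differences of each list and the 3 nearest genes of each member called in WT cells. Some genes that this rule names are not reported here. The searches for TGATGNAA and for the iron response element were added later. Promoters came from RefSeq (GRCm38.p6) and transcripts from GENCODE M21. Alternatives were other pseudocounts, filters, scalings and call rules.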

Additional observations from a re-analysis of the deposited data

How the results depend on the processing

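Of 400 recomputed differences of the 10 genes, 0 called values changed sign, and 364 moved by less than the standard error implied by the Cuffdiff interval. Other filters and leaving out small RNA genes cannot move a gene's own difference, so part of the 364 was fixed in advance. The counts of called genes over the WT effect (563), GEF-H1-/- effect (123), control genotype difference (214), treated genotype difference (463) and difference in effect (216) depended on the pseudocount. With 0.1 FPKM they were 956, 212, 372, 801 and 387, and with 5 FPKM 318, 77, 101, 206 and 123, where 0 of the 10 genes were called in GEF-H1-/- cells. With intervals apart as the rule, the first 4 counts were 1911, 422, 540 and 1567, and the 10 genes had 3 calls in GEF-H1-/- cells and 1 between the controls. Without small RNA genes the GEF-H1-/- count was 74. On the equal-sum scale the calls among the 10 genes were 0 in GEF-H1-/- cells, 2 between treated groups and 1 in the difference of effects. With small RNA genes left out of the sums, an alternative chosen after seeing the data, they were 0 in GEF-H1-/- cells, 3 between treated groups (*Tfrc*, *Slc40a1* and *Fth1*) and 1 in the difference of effects. The cause of these differences was not tested.

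No paired analysis was possible because the table holds 1 pooled value per gene and group, so the replicate numbers in the labels match no column. For the same reason no replicate was left out and no sample was compared with the others of its group. The intervals, widest for *Ftl1*, limit the precision of every value.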

Other observations

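Other genes with a match to the iron response element had medians close to 0. Of the 28 genes with a match in the 5′ UTR, 15 besides *Fth1*, *Ftl1* and *Slc40a1* passed the filter, and their median log2 difference in WT cells was -0.08, with 1 called higher and 1 lower. Of the 127 genes with a match in the 3′ UTR, 82 besides *Tfrc* passed, with a median of -0.04, 2 called higher and 4 lower. Over all genes 3.66% were called higher and 1.28% lower, so these few calls are not read as a result. These matches rest on the letters and the pairing alone.

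Ferritin was among the most abundant mRNAs. Both chains together made 1.20% of the summed FPKM in control WT and 1.64% in treated WT cells, against 1.33% and 1.37% in control and treated GEF-H1-/- cells. Small RNA genes left out, *Fth1* ranked 26 of all genes in control WT and 12 in treated WT cells, and 46 and 38 in control and treated GEF-H1-/- cells, while *Ftl1* ranked 5 in control WT cells and 4 in the other groups.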
